A study of Mus musculus with 12 samples.

Results

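The small nucleolar RNAs (snoRNAs) described here are the genes of the array whose platform symbol begins with Snora or Snord and a number. There were 98 of them among 24570 named genes, 34 of the box H/ACA class (Snora) and 64 of the box C/D class (Snord). The genes were chosen by symbol, and the family was taken up because its member Snora20 had been selected on its measured log2 difference between diabetic and control retinas. Every difference between diabetic and control retinas given below for a snoRNA is therefore a description and carries no p-value. Whole retinas of male C57Bl6/J mice were hybridised with 1 array per animal. The diabetic group held 6 animals given streptozotocin, a toxin of the insulin-producing beta cells, at 160 mg per kg into the peritoneum at 8 weeks of age, with blood glucose above 15 mM a week later. The control group held 6 normoglycemic animals of matched age that were given none. Retinas were taken at 6 weeks, counted from induction in the sample labels. The design text gives 6 weeks as the age instead, which injection at 8 weeks contradicts, so the age at sampling is not settled here. The labels name no vehicle injection for the controls, and they call the mice outbred although C57BL/6J is an inbred strain.

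snoRNAs are short RNAs of the nucleolus that pair with other RNAs and lead a protein complex to a chosen base. Box C/D snoRNAs carry the methyltransferase fibrillarin and direct ribose methylation, and box H/ACA snoRNAs carry the pseudouridine synthase dyskerin and direct the change of uridine to pseudouridine, mostly in ribosomal RNA. Most mammalian snoRNAs lie in introns and are cut from the spliced intron of a host gene, often a gene for a ribosomal protein, a translation factor or a long noncoding RNA. They have no poly(A) tail. The deposited line of a snoRNA may therefore hold the mature RNA or unspliced host RNA, depending on the labelling, and which of these it holds was not tested.

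Because an intronic snoRNA is transcribed from the promoter of its host, the starts of 4 host genes are shown, those of Snora20, Snora81 and Snora21, the highest differences among the members past the threshold of the fit described below, and of Snord111, the lowest. Each runs from 45 bases before to 15 after the annotated start, is read along the gene's own strand, and is credited to RefSeq with build GRCm38.p6. Capitals mark the first C followed by at least 4 pyrimidines within 10 bases either side of the start, searched on the gene's strand. The search was modelled on the terminal oligopyrimidine tract that many host genes are known for, which begins at the first base of the RNA. Both stretches marked below end before the annotated start, so neither is shown to be such a tract.
Tcp1 (host of Snora20, chr17:12916284-12916343, plus strand): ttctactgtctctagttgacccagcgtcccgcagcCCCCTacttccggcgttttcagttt
Eif4a2 (host of Snora81, chr16:23107423-23107482, plus strand): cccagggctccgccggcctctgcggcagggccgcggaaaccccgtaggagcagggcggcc
Rpl23 (host of Snora21, chr11:97782425-97782484, minus strand): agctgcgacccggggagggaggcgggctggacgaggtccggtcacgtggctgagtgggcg
Sf3b3 (host of Snord111, chr8:110846789-110846848, minus strand): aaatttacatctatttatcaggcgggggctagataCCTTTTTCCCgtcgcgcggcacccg
A stretch of this form stood in this window in 20 of 52 host genes with a listed start (38.5%) and in 8325 of 27025 genes in all (30.8%). These counts take in stretches before the start and are not counts of terminal tracts. No match says only that these letters are not in this window.

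Arrays correlated at 0.993 to 0.998 and, after the submitters' quantile normalization, all had the median 5.73. The 12 retina markers were bright, with a list mean of 11.29 to 11.44 in diabetic and 11.38 to 11.46 in control arrays. Among them only the cone gene Arr3 passed the test, with 10.87 to 11.25 in diabetic and 11.27 to 11.54 in control arrays. It fell by 0.30 ± 0.07 (limma adjusted p = 0.0348), and its part in the snoRNA values was not tested. Red blood cell markers (list means 5.25 to 5.29 in diabetic and 5.25 to 5.29 in control arrays) and microglia markers (5.62 to 5.71 and 5.67 to 5.73) lay close to or below the array median. The list mean of the 7 lens markers ranged from 5.58 to 7.20 in diabetic and from 5.70 to 6.27 in control arrays. That of the 7 pigment epithelium markers ranged from 6.45 to 7.61 in diabetic and from 6.37 to 6.94 in control arrays. Single markers varied more, and the lens gene Cryaa ran from 6.30 to 11.73 in diabetic and from 6.92 to 10.02 in control arrays. Diabetic 6 had the highest mean for both lists.

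Most snoRNA lines were bright. Of the 34 H/ACA snoRNAs 30 had a mean above the array median and of the 64 C/D snoRNAs 53, which is 84.7% of the family against 50.4% of all genes. The median log2 level was 7.91 in the H/ACA class and 9.40 in the C/D class, and 7 H/ACA and 25 C/D members exceeded 10. Probes differ in brightness, so these values place a line within the range of the array and do not rank the RNAs by abundance. The brightest C/D lines were Snord33 (13.53), Snord100 (13.48), Snord32a (13.42), Snord22 (13.14) and Snord87 (12.77). Snord22, or U22, is needed in frog oocytes for making the small ribosomal subunit's RNA. The array's highest value was 14.10. The differences of these lines ran from -0.04 (Snord100) to 0.11 (Snord22). The brightest H/ACA lines were Snora21 (12.17), Snora34 (11.70), Snora23 (11.29), Snora47 (11.23) and Snora30 (11.06).

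**Figure D1:**
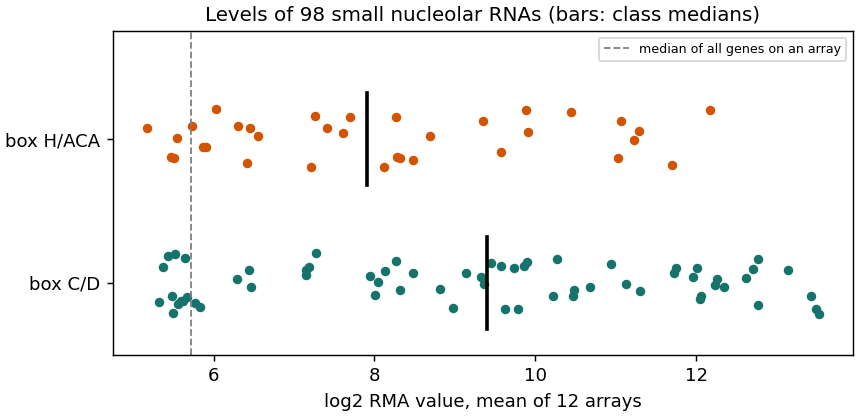
Mean log2 RMA value over 12 arrays of each snoRNA (points), by class, with black bars at the class medians of 7.91 (H/ACA) and 9.40 (C/D). Most points lie right of the dashed line at the array median of 5.73, and points are spread vertically only to part them.

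H/ACA snoRNAs fold into a pair of hairpins and C/D snoRNAs into a single stem, and the classes differed in annotated length. In GRCm38.p6 the H/ACA genes had a median length of 121 bases (61 to 205) and the C/D genes of 68 (45 to 221). Snora20 and Snora61, with 61 and 62 bases, were the shortest H/ACA genes, and the next had 98. Whether these short records hold the whole RNA was not tested. Snora61, at a mean of 5.73, lay close to the array median and differed by 0.09.

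The values of snoRNA lines spread more within a group than those of other genes did. The median within-group SD was 0.16 log2 units over the 83 snoRNAs above the array median, against 0.10 over the 12382 genes above it. These sets differed in median level (9.44 against 7.21). With 1 array per animal, variation between animals and variation of the measurement cannot be told apart. Snord13 (0.43), Snora20 (0.43) and Snora73b (0.41) had the highest SDs, named after their values were seen.

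Positive differences were more common than negative ones among the snoRNAs, and single members stood far apart from the small median difference. Of the 98 members 69 had a positive difference (70.4%), against 48.1% of all 24570 genes, and the median log2 difference was 0.05, against -0.0018 over all genes. In the H/ACA class 26 of 34 were positive (76.5%) with a median of 0.07, and in the C/D class 43 of 64 (67.2%) with a median of 0.04. The difference between the classes was not tested. Without Snora20 the H/ACA median was 0.06. Of the 53 C/D members above the array median 33 were positive (62.3%), and of the 11 dim ones at or below it 10 were. In the fit over all genes (limma, Benjamini-Hochberg, threshold 0.05) 5 members lay past the threshold on the higher side, where 1.47% of all genes did, and 1 on the lower side, where 1.77% did. These were 4 H/ACA members and 1 C/D member higher, and 1 C/D member lower. Of the 83 members above the array median 6.02% lay past the threshold, against 5.14% of the 12382 genes above it. At an unadjusted p under 0.05 in the limma fit there were 21 of the 98 members, where 21% of all genes were. Nothing is read from this count, since the contrast was used in choosing the family. In a whole tissue, fewer cells of a type and less RNA per cell cannot be told apart.

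**Figure D2:**
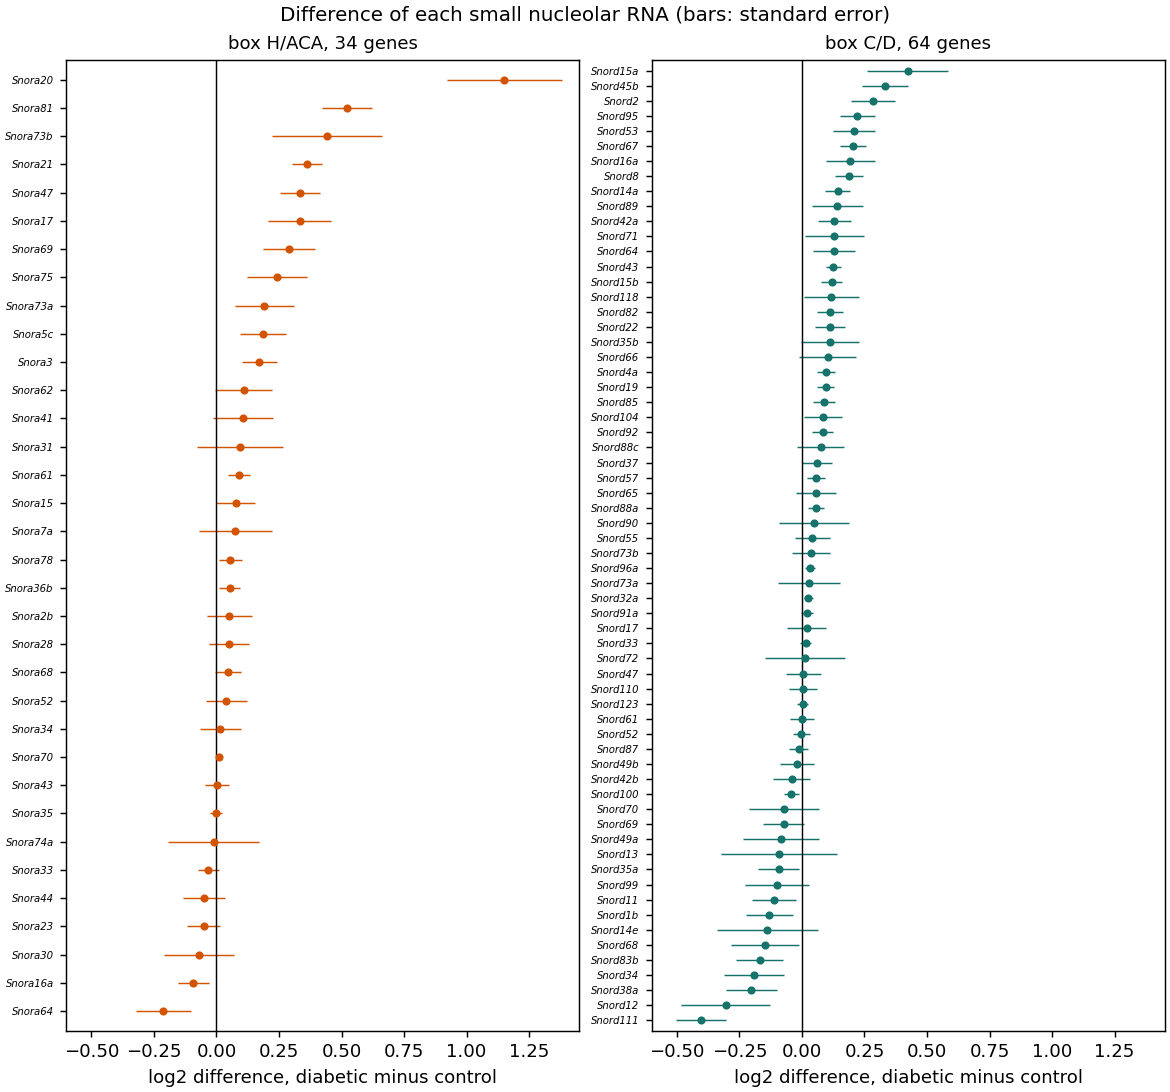
Log2 difference, diabetic minus control (6 arrays each), of all 34 H/ACA snoRNAs (left) and all 64 C/D snoRNAs (right), sorted, with standard errors as bars. Snora20 (1.15) stands apart at the top, Snord111 (-0.40) is lowest, and the middle of both classes lies slightly right of 0.

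Snora20 pairs in human with the RNA of the small ribosomal subunit. Its log2 value ran from 8.27 to 9.64 (median 9.12) in diabetic retinas, against 7.50 to 8.38 (median 7.88) in control retinas. Diabetic 3 was highest and diabetic 6 lowest, and the groups overlapped only through diabetic 6 and control 5. The mean was 9.05 ± 0.52 in diabetic and 7.90 ± 0.32 in control retinas (SD, n = 6 each), a fold of 2.22 (log2 difference 1.15 ± 0.23, SE). Diabetic 6 had the highest lens and pigment epithelium means. The difference of Snora20 was 1.31 without that array, 1.26 with the lens mean as a covariate and 1.20 with the pigment epithelium mean. As diabetic 6 was the lowest diabetic array for Snora20, leaving it out had to raise the difference. With another array left out the difference fell to 1.03. The part of lens and pigment epithelium in these values was not tested. Tcp1, the host of Snora20 and a subunit of the cytosolic chaperonin, differed by -0.05 ± 0.02 (limma adjusted p = 0.153).

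Next in size was Snora81, which pairs in human with the RNA of the large subunit. It ran from 8.39 to 8.93 (median 8.50) in diabetic retinas, against 7.85 to 8.32 (median 8.06) in control retinas. The groups did not overlap, and the difference was 0.52 ± 0.10 (SE), or 1.44-fold. Snora21, which pairs with the same ribosomal RNA in human, ran from 12.17 to 12.53 (median 12.35) in diabetic retinas, against 11.92 to 12.16 (median 11.95) in control retinas. Here too the groups did not overlap, by a narrow gap between diabetic 6 and control 5, and the difference was 0.36 ± 0.06. Snora81 and Snora21 were the 2 members of the family without overlap, where 2.84% of all genes had none, and nothing is read from that.

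Snora47 ran from 11.14 to 11.55 (median 11.46) in diabetic retinas, against 10.85 to 11.22 (median 11.04) in control retinas. The groups overlapped, with diabetic 6 within the control range, and the difference was 0.33 ± 0.08. Snord43, a C/D snoRNA that directs methylation of the small subunit's RNA, was dim, running from 5.48 to 5.63 (median 5.57) in diabetic retinas, against 5.36 to 5.51 (median 5.44) in control retinas. Its groups overlapped through diabetic 2 and control 3, and its difference was 0.13 ± 0.03. Snord111 was the one member past the threshold on the lower side, with 9.23 to 9.82 (median 9.62) in diabetic retinas, against 9.79 to 10.22 (median 9.98) in control retinas. The groups overlapped by a single array on each side, diabetic 1 and control 6, and the difference was -0.40 ± 0.10. With the lens and the pigment epithelium mean as covariates, the differences were 0.36 and 0.37 for Snora47, 0.12 and 0.12 for Snord43, and -0.35 and -0.42 for Snord111. Snord43 and Snord111 lay short of the threshold with either covariate and Snora47 with the lens mean.

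**Figure D3:**
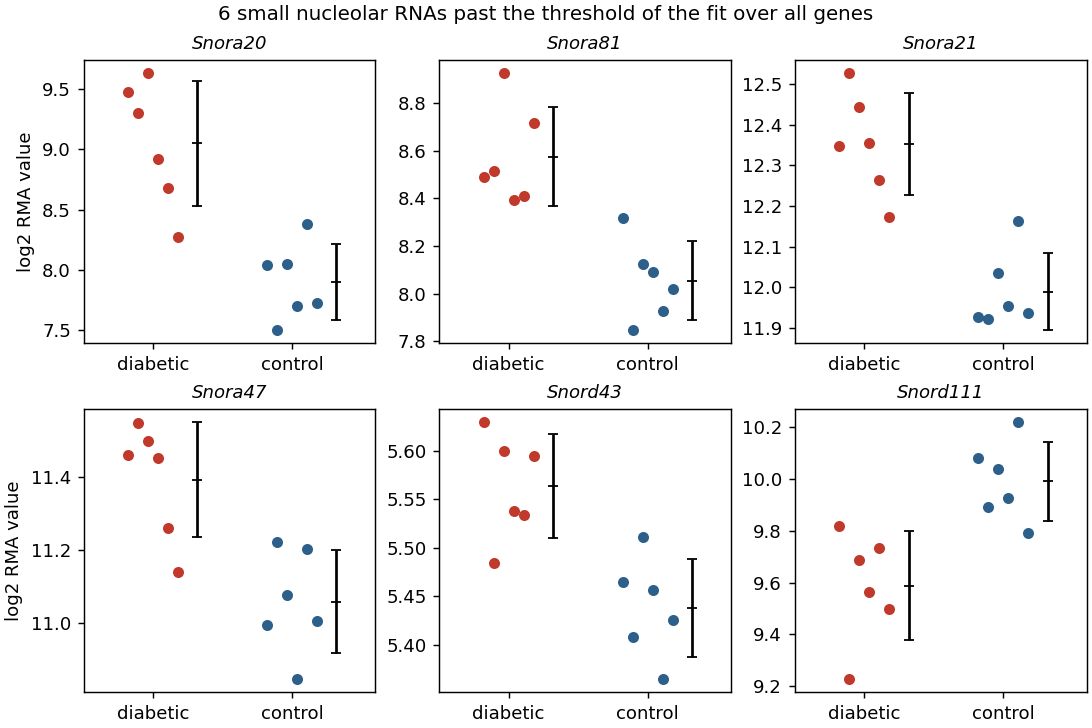
Log2 RMA values of the 6 snoRNAs past the threshold of the fit over all genes, 1 point per animal, diabetic left and control right, with mean and SD beside the points (axes differ and do not start at 0). Snora81 and Snora21 show no overlap between the groups, and Snora20 has the widest spread, 8.27 to 9.64 in diabetic retinas.

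Other members with wide differences had overlapping groups. Snora73b belongs to the U17 snoRNAs, H/ACA members that serve cleavage of the ribosomal RNA precursor in place of guiding a base change. It ran from 7.45 to 8.64 (median 7.74) in diabetic retinas, against 6.93 to 7.89 (median 7.31) in control retinas (difference 0.44 ± 0.22). Its highest array was diabetic 6, which was also highest for Snora17 (difference 0.33 ± 0.13) and for the lens and pigment epithelium markers. Without that array the difference was 0.28 for Snora73b, over 1.5 times smaller, and 0.24 for Snora17. With another array left out it reached 0.54 for Snora73b and 0.40 for Snora17. Snord15a ran from 7.79 to 8.49 (median 8.29) in diabetic retinas, against 7.22 to 8.28 (median 7.85) in control retinas, a difference of 0.42 ± 0.16. Snord45b ran from 6.35 to 6.86 (median 6.57) in diabetic retinas, against 6.08 to 6.45 (median 6.28) in control retinas, a difference of 0.33 ± 0.09. All of these lay short of the threshold.

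On the negative side, Snord12 ran from 8.54 to 9.63 (median 9.28) in diabetic retinas, against 9.03 to 9.77 (median 9.60) in control retinas, a difference of -0.31 ± 0.18. Its lowest value was that of diabetic 2, and without that array the difference was -0.17. With another array left out it reached -0.40. Smaller negative differences were those of Snora64 (-0.21 ± 0.11), Snord38a (-0.20 ± 0.10), Snord34 (-0.19 ± 0.12), Snord83b (-0.17 ± 0.09), Snord68 (-0.15 ± 0.14) and Snord14e (-0.14 ± 0.20). Snora64 was the only H/ACA member among the 8 lowest. Snord14e belongs to the U14 snoRNAs, which serve both methylation and processing of the small subunit's RNA, and its control values spread from 7.84 to 9.03. Leaving out the array that lowered each most in size brought most of these over 1.5 times nearer to 0. The differences were then -0.12 for Snora64 and -0.01 for Snord14e (both without control 3), -0.08 for Snord34 (without control 5), -0.10 for Snord83b (without diabetic 4) and -0.08 for Snord68 (without diabetic 6). At the other end of the 12 fits they were -0.27 for Snora64, -0.25 for Snord14e, -0.26 for Snord34, -0.23 for Snord83b and -0.24 for Snord68. For all of these the groups overlapped.

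The family's values varied between the arrays of each group. The median deviation of the H/ACA members from their own 12-array means ran from -0.03 (diabetic 4) to 0.11 (diabetic 3) in diabetic arrays, against -0.13 (control 6) to 0.08 (control 3) in control arrays. For the C/D members it ran from -0.06 (diabetic 4) to 0.09 (diabetic 3) in diabetic arrays, against -0.11 (control 6) to 0.04 (control 3) in control arrays. The highest and lowest array of each group were thus the same in both classes. The groups overlapped in both classes.

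**Figure D4:**
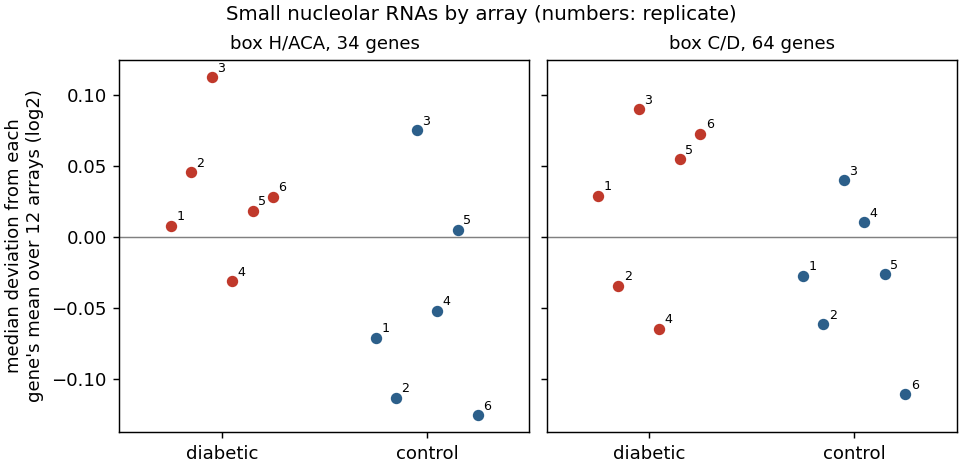
Median over the 34 H/ACA (left) and 64 C/D snoRNAs (right) of each gene's deviation from its mean over 12 arrays, 1 point per animal, with the replicate number beside it. Diabetic 3 and control 3 are the highest of their groups and diabetic 4 and control 6 the lowest in both panels, and the groups overlap.

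Hosts were taken as the gene whose span encloses the snoRNA in the RefSeq gene table, the shortest where several do. That table gives no strand, so the strand was not checked. A host was found for 95 of 98 snoRNAs, in 69 genes, of which 60 were among the named genes and enclosed 81 snoRNAs. For 6 snoRNAs more than 1 gene enclosed them. The 3 without a host were Snord118, Snord13 and Snord89. Snord118, or U8, which serves the processing of the large subunit's RNA, is transcribed from a promoter of its own, and it differed by 0.12 ± 0.11. Snord13, or U13, which guides an acetylation of the small subunit's RNA and also has its own promoter, differed by -0.09 ± 0.23, with values from 11.27 to 12.29 in diabetic retinas and from 11.09 to 12.37 in control retinas. Snord89 differed by 0.14 ± 0.10.

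The signs of snoRNAs and hosts matched in about as many pairs as not. Of the 81 snoRNAs with a measured host 41 had a difference of the same sign as the host and 40 of the opposite sign, and of the 16 with a difference beyond 0.2 in size 8 had the host's sign and 8 the opposite. Eif4a2, a helicase of translation initiation and the host of Snora81 and Snord2, ran from 9.33 to 9.58 (median 9.53) in diabetic retinas, against 9.69 to 9.88 (median 9.79) in control retinas. It fell by 0.30 ± 0.04 on the log2 scale (limma adjusted p = 0.0104) with no overlap between the groups, whereas Snora81 differed by 0.52 and Snord2 by 0.28 ± 0.09 from the same transcript. The ribosomal protein genes Rps3, host of Snord15a and Snord15b, and Rpl23, host of Snora21, had negative differences beside positive ones of their snoRNAs. Rps3, at 7.69 to 8.00 in diabetic and 7.89 to 8.43 in control retinas, differed by -0.29 ± 0.08 (limma adjusted p = 0.0815), with Snord15a at 0.42 and Snord15b at 0.12 ± 0.04. Rpl23, a dim line at 5.83 to 6.05 in diabetic and 5.98 to 6.32 in control retinas, differed by -0.23 ± 0.06 (limma adjusted p = 0.0767), with Snora21 at 0.36. The groups overlapped for both genes, and neither passed the test in the fit over all genes. Rpl23 passed in 3 of the 10 alternatives that kept all arrays. Rps3 passed in 2 of the 10 and in 1 of the 12 fits that left out an array (without control 5). Sf3b3, a splicing factor subunit and host of Snord111, differed by 0.09 ± 0.05 (limma adjusted p = 0.273). Among the other hosts of the snoRNAs named above, Hspa8 (-0.17 ± 0.05), Rps2 (-0.18 ± 0.06), Zbed3 (0.06 ± 0.04), Rabggtb (0.05 ± 0.04), Rpl13 (0.04 ± 0.05), Snhg3 (-0.04 ± 0.05), Rpl3 (0.02 ± 0.02), Snhg7 (0.01 ± 0.03) and Zfas1 (-0.0046 ± 0.034) did not pass, with limma adjusted p-values from 0.0916 (Hspa8) to 0.957 (Zfas1). Of these, Hspa8 and Rps2 each passed in 1 of the 10 alternatives that kept all arrays, and Hspa8 also passed without control 5. The difference between a snoRNA and its host was not tested, since the snoRNA's side of it was known.

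**Figure D5:**
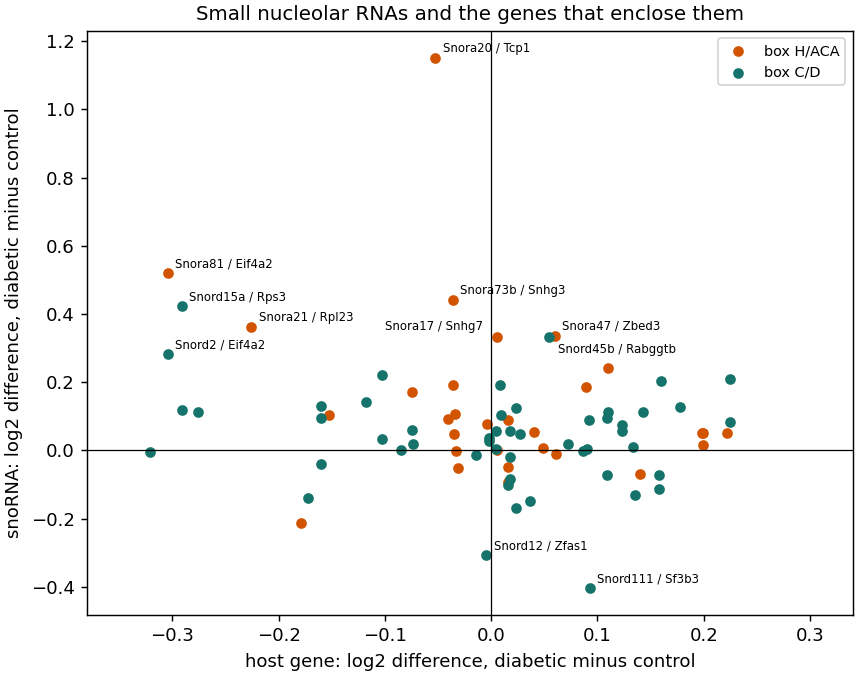
Log2 difference, diabetic minus control, of 81 snoRNAs (vertical axis) against that of the gene enclosing each (horizontal axis), H/ACA in orange and C/D in green, with names beside members above 0.27 or below -0.25. Points lie on both sides of 0 on each axis, and Snora81, Snord15a, Snora21 and Snord2 lie at the upper left, above hosts with negative differences.

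Of the 60 measured hosts 3 rose and 1 fell in the limma fit, 6.67% against 3.24% of all genes. Most hosts (85%) lay above the array median, where 5.14% of genes passed. Wdr43, a component of the complex that processes the small subunit's RNA, ran from 9.36 to 9.53 (median 9.39) in diabetic retinas, against 9.12 to 9.28 (median 9.18) in control retinas. It rose by 0.22 ± 0.03 (limma adjusted p = 0.0104), and the snoRNAs inside it, Snord53 and Snord92, differed by 0.21 ± 0.08 and 0.08 ± 0.04. Ckap5, which promotes microtubule growth, ran from 10.51 to 10.62 (median 10.55) in diabetic retinas, against 10.37 to 10.49 (median 10.37) in control retinas. It rose by 0.16 ± 0.03 (limma adjusted p = 0.0133), and Snord67 inside it differed by 0.20 ± 0.05. The groups overlapped for neither gene. Rab3gap2, a regulator of the Rab3 and Rab18 proteins of vesicle traffic, rose by 0.22 ± 0.05 (limma adjusted p = 0.0371), with values between 8.75 and 9.01 in diabetic retinas and between 8.60 and 8.83 in control retinas. Its groups overlapped, and its dim Snora36b differed by 0.05 ± 0.04. Its call was lost in 10 of the 12 fits that left out 1 array, all but those without control 1 or diabetic 2, with a difference between 0.20 and 0.26, and with the pigment epithelium mean as a covariate.

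By type of host, the 31 snoRNAs inside ribosomal protein genes had a median difference of 0.04, with 22 positive. The 15 measured ribosomal protein hosts had a median of -0.03, with 5 positive. Their median level was 5.89, close to the array median, although ribosomal protein messages are abundant in every cell, so what these lines measure was not tested. All 6 snoRNAs inside translation factor genes were positive (median 0.10), while the 5 hosts had a median of -0.07 with 2 positive. The 34 snoRNAs in other protein genes (25 positive, median 0.05) had 26 measured hosts with 18 positive (median 0.08). The 24 snoRNAs in long noncoding RNAs had 14 positive with a median of 0.00, and their 14 measured hosts 9 positive with a median of 0.02.

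snoRNAs cut from the same host often differed in size. In the 20 hosts with 2 or more measured snoRNAs, which held 46 of them, all snoRNAs had the same sign in 13. Rpl13a holds Snord32a, Snord33, Snord34 and Snord35a. Members of this set, though not each of them, are known to act in cultured cells in the response to an excess of saturated fat. Joint loss of the set in mice alters glucose handling. The differences of these snoRNAs ran from -0.19 (Snord34) to 0.03 (Snord32a), with a median of -0.04, and Rpl13a itself was not analysed here. The 4 snoRNAs of Snhg12, a noncoding host, ran from -0.10 to 0.09 with a median of -0.07, and Snhg12 itself differed by 0.02. The widest range within a host was that of Snhg7, with Snora17 at 0.33 and Snora43 at 0.00, followed by Rps3, with Snord15a at 0.42 and Snord15b at 0.12, and Rpl3, with Snord43 at 0.13 and Snord83b at -0.17.

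There were 8 families of lettered copies with 16 members, whose probes may share sequence and may not tell the copies apart. In Snora73 (0.19 and 0.44), Snord15 (0.42 and 0.12), Snord73 (0.03 and 0.04) and Snord88 (0.06 and 0.08) both copies were positive. In Snord49 both were negative (-0.08 and -0.02), and in Snord14, Snord35 and Snord42 the copies had opposite signs.

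The partners of the snoRNAs were taken from a list of core and assembly proteins, processing enzymes and noncoding hosts. Of 44 genes measured 3 rose and 1 fell in the limma fit, 9.09% against 3.24% of all genes, with a median difference of 0.05. Most of the 44 (93.2%) lay above the array median, where 5.14% of genes passed. No core protein passed the adjusted threshold, although at an unadjusted p under 0.05, which 21% of all genes met, all 4 of the H/ACA core and 1 of the 3 measured of the C/D core did. Nop10 of the H/ACA core, which averaged 9.29 ± 0.14 in diabetic and 9.60 ± 0.15 in control retinas (SD, n = 6 each), had a difference of -0.31 ± 0.08 (limma adjusted p = 0.0518). It passed in 7 of the 10 alternatives that kept all arrays, all but the replicate block, the mean over lines of a symbol and centring on brighter genes, and in 1 of the 12 fits that left out an array (without control 6). Gar1 (-0.18 ± 0.05; limma adjusted p = 0.0730), which passed with array weights and without control 5, Dkc1, which encodes dyskerin (-0.11 ± 0.05; 0.196), and Nhp2 (0.16 ± 0.05; 0.0797) did not pass either. In the C/D core, Nop58 differed by 0.16 ± 0.07 (limma adjusted p = 0.232), Nop56 by 0.00 ± 0.06 (0.977), and the dim fibrillarin gene Fbl by -0.00 ± 0.05 (0.993). Nop56 and Nop58 are themselves hosts, and Snord70 (-0.07) and Snord11 (-0.11) of Nop58 were below 0 while Nop58 was above it.

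Of 14 assembly genes, Naf1, which accompanies H/ACA particles until Gar1 takes its place, fell by 0.22 ± 0.05 (limma adjusted p = 0.0372), with 6.13 to 6.36 in diabetic retinas and 6.38 to 6.61 in control retinas. Znhit6, a C/D assembly factor, rose by 0.23 ± 0.05 (limma adjusted p = 0.0436), with 6.80 to 7.14 in diabetic and 6.65 to 6.78 in control retinas. The groups overlapped for neither, although both gaps were narrow. Tgs1, which methylates the caps of small nuclear RNAs and of snoRNAs that have one, rose by 0.20 ± 0.05 (limma adjusted p = 0.0461). Of 6 processing genes, Parn, a nuclease that trims the ends of H/ACA snoRNAs, rose by 0.16 ± 0.03 (limma adjusted p = 0.0199), with 8.81 to 8.94 in diabetic retinas and 8.63 to 8.79 in control retinas, which did not overlap. None of the 17 noncoding hosts in the list passed in the limma fit (3 at an unadjusted p under 0.05, which 21% of all genes met), with 13 above 0 and a median of 0.06. The call of Parn held in all 12 fits that left out 1 array, but not with a variance that follows intensity. That of Naf1 held only without control 5 or diabetic 2 (differences between -0.24 and -0.18 over the 12), that of Znhit6 only without diabetic 1, 2 or 3 (0.19 to 0.25), and that of Tgs1 only without control 4 (0.17 to 0.22). With the lens mean as a covariate the calls of Naf1, Znhit6 and Tgs1 were lost. That of Znhit6 was also lost with the replicate block, and that of Tgs1 with the pigment epithelium mean, array weights and both fits whose variance follows intensity.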

How the data were processed

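Per the submitters' processing notes, the deposited log2 values were made with RMA (robust multi-array average). Its version and settings are not given in the sources used here. A table line, of which there are 24973, stands for 1 Entrez gene number. Of these, 24015 were named by the platform annotation and 559 by the RefSeq table of GRCm38.p6, and 399 without a name were left out. For 4 symbols on several lines the one with the highest mean was kept, which left 24570 genes. Sorted, every array held the same values (quantile normalization), so a shift of most genes could not be seen.

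Differences, diabetic minus control, were fitted on all genes, with no filter, by lmFit and eBayes of limma 3.58.1 in R 4.3.3, two-sided, with Benjamini-Hochberg adjustment and a threshold of 0.05. The fit was also run on simulated data. These held independent values for each gene and no array normalization, unlike the deposited values, so nothing is read from that run. Errors are SEs of differences or SDs of levels. Members, lists and the rule for named genes (Snora20, members past the threshold, the 8 highest and 8 lowest differences, the 5 brightest of each class, their hosts, core proteins, and other hosts or partners past the test) were chosen with earlier results of these data known. Further names are given as snoRNAs of the hosts that passed, of shared hosts or of lettered copies. Alternatives covered the variance model, array weights, filters, the replicate number, tissue covariates and each array left out. The number of arrays limits the precision.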

Additional observations from a re-analysis of the deposited data

Results flagged for a closer look

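Among 116 groups of 6 arrays (the named snoRNAs, hosts and partner proteins in diabetic and in control retinas), 7 (6.03%) held an array whose gap to its nearest neighbour took an unusually high share of the group's range (Dixon's ratio, given below), and chance gives about 1 in 20. In diabetic retinas these were Rps2 (ratio 0.805, diabetic 2 high), Rpl23 (0.745, diabetic 5 high) and Wdr43 (0.741, diabetic 6 high). In control retinas they were Snord22 (0.908, control 5 low at 12.78, with the others from 13.12 to 13.16), Tcp1 (0.638, control 5 low), Snord38a (0.636, control 5 low) and Snord68 (0.626, control 2 low). Control 5 was the array in 3 of the 4 control groups.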

How the results depend on the processing

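No named snoRNA past the threshold changed sign under any alternative, and 549 of 549 values of named snoRNAs stayed within 1 within-group SD. Most of these values could not have moved further. The variance models, the filters and the replicate block leave a difference unchanged, and leaving out 1 of 6 arrays moves it by less than that SD. Nothing is read from this tally. Of the values of named hosts and partner genes, 652 kept their side of the threshold, 51 fell short of it and 20 newly passed it. The count of snoRNAs past the threshold, 5 higher and 1 lower, ranged from 2 to 5 and from 0 to 1 with 1 array left out, and was 3 and 0 with the lens mean as a covariate and 0 lower with the pigment epithelium mean. Snora20 fell short of it without control 2, control 6, diabetic 1, diabetic 3 or diabetic 4 (differences from 1.03 to 1.31), Snora47 and Snord43 in 10 of 12 such fits and Snord111 in 11. The contrast chose the family, so nothing is read from these counts. With 1 array left out, the median difference ranged from 0.04 to 0.09 for H/ACA and from 0.02 to 0.07 for C/D snoRNAs, and the number with a positive difference from 59 to 75. All genes past the test, 362 higher and 435 lower, ranged from 155 to 386 and from 170 to 449, and were 217 and 208 with the lens mean. Host genes ranged from 2 to 4 higher and from 1 to 5 lower with 1 array left out. They were 5 higher and 4 lower with trend and robust variances, 4 lower with the trend alone or a filter at the median, and 2 lower with the filter at the 25th percentile or the pigment epithelium mean. Partner genes ranged from 1 to 2 higher and from 0 to 2 lower. They were 1 higher with the lens mean, and 1 higher and 2 lower with either trend fit. They were 4 lower with array weights, 2 and 3 lower with the filters at the 25th percentile and the median, and 3 lower with the pigment epithelium mean. The cause was not tested for any of these.

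Same-numbered animals showed little shared deviation (correlations from -0.16 to 0.17). Only diabetic 2 correlated most with the control of its own number (0.17). With so few animals this check cannot exclude that the numbers pair the arrays. With the replicate block, 227 genes were higher and 279 lower, 3 hosts were lower, and 6 snoRNAs were higher, without Snora20 and Snora47, which fell short of the threshold at the same differences.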
